A study of Rattus norvegicus with 16 samples.

Results

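Expression of 4 genes that bring fatty acids into heart muscle and prepare them for use was followed through 16 rat heart libraries: Lpl, Cd36, Fabp3 and Acsl1. Each was found by its Ensembl gene identifier in the count files, which hold 23918 genes, and 4 of 4 members passed the filter on low counts. The hearts came from adult male Wistar rats of 240 to 260 g and were taken after 4 days of follow-up. Untreated animals (control, dose 0 mg/kg, agent none) gave 4 libraries. Streptozotocin, injected once into a tail vein with the rats under halothane, gave 6 libraries at 55 mg/kg (D55) and 6 at 100 mg/kg (D100). The labels name no vehicle injection or anaesthesia for the controls, so the agent and the procedure cannot be told apart. Streptozotocin destroys the insulin-producing cells of the pancreas, and a blood glucose above 13 mmol/L was recorded in the dosed rats 24 hours later. Each library came from its own rat, so n counts animals. Marker genes of heart muscle and of other cell types were not analysed here, so the tissue label was not checked.

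The heart burns mainly fatty acids, which reach it as triglyceride in lipoproteins or bound to albumin. Lipoprotein lipase (Lpl) frees fatty acids from lipoproteins at the vessel wall, the membrane protein CD36 helps them across the cell surface, the heart-type binding protein FABP3 carries them through the cytosol, and the long-chain acyl-CoA synthetase ACSL1 joins them to coenzyme A so that they can be oxidised or stored. In diabetes the heart is known to rely still more on fatty acids, and several of these genes are known targets of the lipid-sensing PPAR receptors. The comparisons asked how the level of each gene differed between the doses and from untreated hearts.

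RefSeq promoters on build GRCr8 were held for 3 of the 4 genes, all but Lpl. They are shown because the PPAR receptors named above act through promoter elements, and because Fabp3 was highest in the libraries where Acsl1 was lowest. They were matched by gene symbol, so whether the Cd36 promoter belongs to the Ensembl identifier counted here was not checked. Whether these sequences bear on the levels was not tested. Each is the 250 bases before the start site, 5′ to 3′ on the gene's strand: Cd36 at chr4:18246332-18246581 (plus strand), Fabp3 at chr5:147935875-147936124 (plus strand) and Acsl1 at chr16:52532393-52532642 (minus strand). Capitals mark a match to a searched motif.
Cd36: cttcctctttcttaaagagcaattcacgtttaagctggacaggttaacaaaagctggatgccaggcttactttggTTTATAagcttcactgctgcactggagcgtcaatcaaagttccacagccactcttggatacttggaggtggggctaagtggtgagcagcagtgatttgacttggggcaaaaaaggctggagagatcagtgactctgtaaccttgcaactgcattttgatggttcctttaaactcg
Fabp3: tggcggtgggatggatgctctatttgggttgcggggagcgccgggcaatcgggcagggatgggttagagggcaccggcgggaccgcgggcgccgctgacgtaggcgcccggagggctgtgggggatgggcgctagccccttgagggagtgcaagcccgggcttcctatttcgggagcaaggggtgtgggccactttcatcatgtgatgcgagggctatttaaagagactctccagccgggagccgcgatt
Acsl1: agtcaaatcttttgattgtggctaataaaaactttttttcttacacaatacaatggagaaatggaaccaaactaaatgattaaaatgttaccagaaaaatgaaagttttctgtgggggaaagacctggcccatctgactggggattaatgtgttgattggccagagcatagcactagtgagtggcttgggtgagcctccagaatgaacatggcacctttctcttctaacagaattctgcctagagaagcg
Both strands were searched for AGGTCA, for AGGTCA repeated with 1 base between (the PPAR direct repeat, which contains the first motif), for the GC box (GGGCGG), the TATA box (TATAAA) and a forkhead motif (GTAAACA). The only match was TATAAA on the opposite strand of the Cd36 window, from base -175 to base -170 before the start site. Of 33469 windows of the same length, TATAAA was present in 12.9%, AGGTCA in 14.1%, GGGCGG in 30.5%, GTAAACA in 3.21% and the direct repeat in 0.0508%. The Fabp3 window had a GC content of 65.6%, against 45.6% for Cd36 and 40% for Acsl1.

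Levels are given as CPM, the count of a gene relative to its library's TMM-scaled total, where TMM is a scaling that sets the bulk of genes level between libraries. They are not divided by gene length, so they compare libraries and not genes. Library totals ranged from 4.685 to 48.4 M counts, and D100 replicate F was the shallowest. By group they were 26.21 to 48.27 M in control, 18.5 to 48.4 M in D55 and 4.685 to 25.58 M in D100. Every D100 library was thus shallower than every control. The 10 genes with the most counts over all libraries took 43.28 to 59.44% of a library in controls (called the top-10 share), 30.11 to 54.66% in D55 and 53.42 to 69.04% in D100, with the lowest shares in D55 replicates B and E (30.11 and 30.43%). These libraries are named again beside the values that they touch.

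Of the 4 genes, 0 passed an adjusted p of 0.05 in edgeR in any of the 3 comparisons. Among all 14175 genes tested, 4.38% passed in D100 against control, 0.0635% in D55 against control and 35.6% in D100 against D55. At an unadjusted p under 0.05, 1 member stood in D100 against control (22.8% of all genes), 0 in D55 against control (8.97%) and 2 in D100 against D55 (51.4%). DESeq2 called 1, 0 and 1 members in these comparisons, against 10.1%, 0.621% and 46.6% of all genes, and limma-voom 3, 0 and 2 members, against 67.7%, 3.68% and 49.9%. The median log2 fold change of the members was 0.19 in D100 against control, 0.19 in D55 against control and 0.38 in D100 against D55, where the medians of all genes were -0.03, 0.03 and -0.03. The comparisons with control share the same 4 control libraries. Heart RNA comes from several cell types, and fewer cells of a type and less RNA per cell cannot be told apart.

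**Figure D1:**
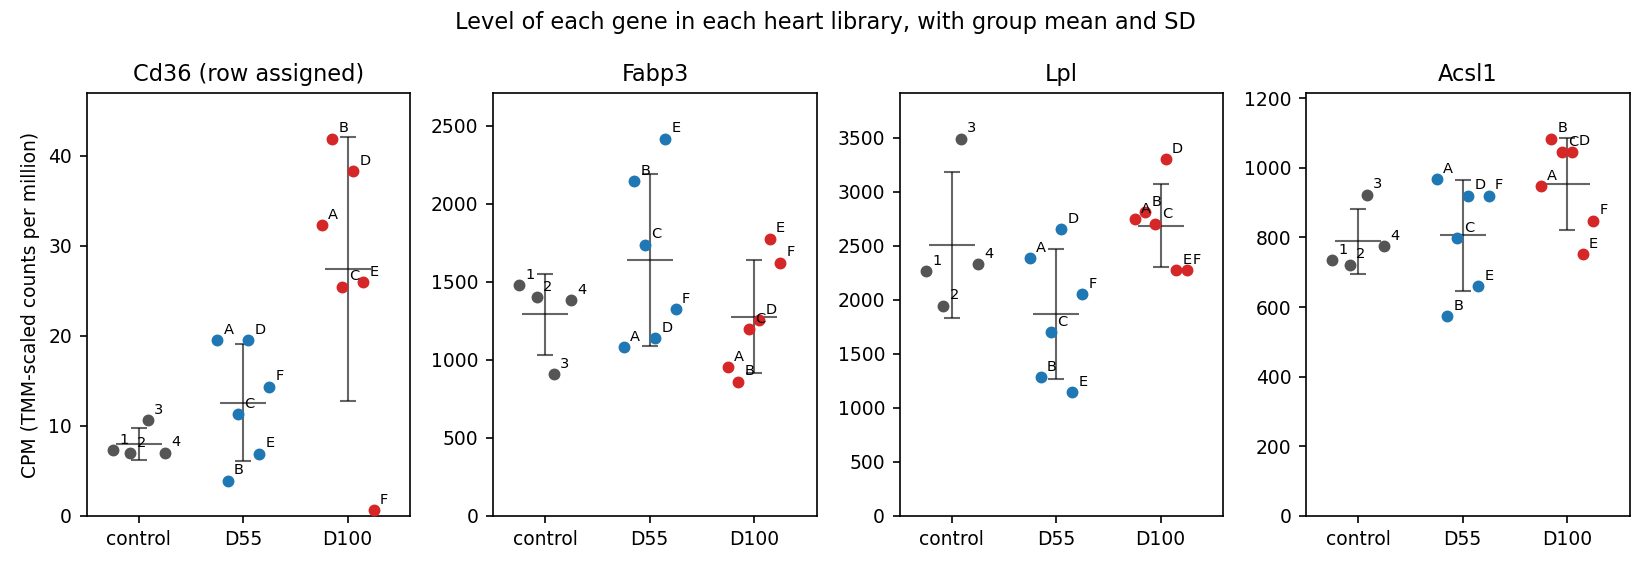
CPM of each gene (vertical axes, each from 0) in each library by group, labelled with the replicate, with a dash for the mean and bars for the SD (n = 4, 6 and 6). For the row assigned to Cd36, 5 D100 libraries lie between 25.47 and 41.9 CPM, above every other library, and D100 F lies at 0.6193 CPM.

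Lpl (ENSRNOG00000012181.3), the enzyme that frees fatty acids from lipoproteins, had its lowest adjusted p in the comparison of the doses. Controls held 2266, 1944, 3489 and 2326 CPM. D55 ran from 1147 to 2650 CPM with a median of 1872, and D100 from 2270 to 3299 with a median of 2720. The lowest values of the series were D55 E and B (1147 and 1279 CPM), and D100 overlapped both other groups. D100 was higher than every D55 library in 4 of 6 animals, and D55 lay below every control in 3 of 6.

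For Lpl the log2 fold change of D100 over D55 was 0.52 (95% interval 0.08 to 0.97), which did not pass in edgeR (adjusted p = 0.0604). It passed in DESeq2 (0.54, adjusted p = 0.0307, with 46.6% of all genes) and in limma-voom (0.37, adjusted p = 0.0235, with 49.9%). In edgeR it passed without D55 A (0.60, adjusted p = 0.0403, with 42.7%), without D55 D (0.65, adjusted p = 0.0226, with 47.6%) or without D100 E (0.57, adjusted p = 0.0489, with 46.3%). D55 D and A held the highest Lpl of D55 (2650 and 2386 CPM), and D100 E (2272 CPM) was near the lowest of D100. Leaving out any of these therefore widened the difference. With any other single library left out the difference did not pass, at an edgeR adjusted p from 0.0503 (without D100 F) to 0.149 (without D55 B). Without D55 B and E it was 0.29 (adjusted p = 0.328), and with the top-10 share as a covariate it was -0.10 (adjusted p = 0.774). D55 over control was -0.42 (-0.92 to 0.07, edgeR adjusted p = 0.555) and D100 over control 0.10 (-0.40 to 0.60, edgeR adjusted p = 0.805). Limma-voom, which weights libraries by quality, called the second of these (0.33, adjusted p = 0.0213), as it did 67.7% of all genes.

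The row assigned to Cd36 (ENSRNOG00000005906.8) had the widest spread of the 4, with a biological coefficient of variation of 63.9% in edgeR, and whether it passed depended on the libraries kept and on the tool. The 4 controls held 7.248, 6.976, 10.62 and 7.007 CPM. D55 replicates A to F held 19.53, 3.892, 11.32, 19.49, 6.895 and 14.35 CPM. D100 replicates A to F held 32.28, 41.9, 25.47, 38.28, 25.98 and 0.6193 CPM. All D100 libraries except F thus lay above all controls and all D55 libraries, while F lay below all of them. In D55, A, C, D and F lay above all controls and B and E below them.

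Group means of this row were 7.96 CPM ± 1.78 (SD, n = 4) in control, 12.6 CPM ± 6.46 in the 6 D55 libraries and 27.4 CPM ± 14.7 in the 6 D100 libraries. The log2 fold change of D100 over control was 1.80 (95% interval 0.48 to 3.11), which did not pass in edgeR (adjusted p = 0.113). It passed in DESeq2 (1.82, adjusted p = 0.0313, with 10.1% of all genes) and in limma-voom (2.01, adjusted p = 7.68e-05, with 67.7%). D100 over D55 gave 1.14 in edgeR (0.03 to 2.25, adjusted p = 0.0912) and passed in limma-voom (0.92, adjusted p = 0.0294, with 49.9% of all genes). D55 over control gave 0.66 in edgeR (-0.60 to 1.92, adjusted p = 0.676).

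Without D100 F, the D100 mean of the remaining 5 libraries was 32.8 CPM ± 7.30 (SD). The log2 fold change over control was then 2.05 (1.22 to 2.88), a 4.15-fold difference that passed in edgeR (adjusted p = 0.00824), where 4.85% of all genes passed. D100 over D55 was then 1.38 (0.67 to 2.09, adjusted p = 0.015), in a comparison where 47.3% of all genes passed. D100 and control values of this row did not overlap then, and neither did D100 and D55 values. F was the only D100 library not above all of these for this row, so leaving it out fixed that outcome in advance. Among all genes, which were not sorted by their own value in F, 11% and 7.17% did not overlap. The adjusted p-values of this row without F rest on the same removal. D55 over control still did not pass (0.67, adjusted p = 0.47, with 0.0708% of all genes passing). Leaving out D55 B and E instead, with D100 F kept, gave 1.80 for D100 over control (adjusted p = 0.0436), where 10.8% of all genes passed, and 0.78 for D100 over D55 (adjusted p = 0.347), where 0.888% did. The 4 remaining D55 libraries then all lay above the controls (groups did not overlap for 4% of all genes), but the difference of 1.02 did not pass (adjusted p = 1, with 0.101% of all genes passing). B and E were the only D55 libraries not above the controls for this row, so leaving them out fixed this separation.

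Library D100 F held 3 counts of this row. The exact 95% Poisson interval for 3 counts, 0.128 to 1.81 CPM, covers counting error only, and its upper end lay below the next lowest library, D55 B at 3.892 CPM. In the same library Fabp3, Lpl and Acsl1 stood at 1623, 2270 and 848.8 CPM, within the range of the other D100 libraries for Fabp3 and Acsl1 and 2 CPM below it for Lpl. With the top-10 share as a covariate and D100 F left out, D100 over control was 1.26 (adjusted p = 0.00312, in a fit where 9.09% of all genes passed) and D100 over D55 was 0.37 (adjusted p = 0.65). With the covariate and all libraries, these were 0.91 (adjusted p = 0.245) and -0.02 (adjusted p = 0.992).

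The label of this row could not be checked. CD36 is known as an abundant transcript of heart muscle, while this row averaged 16.99 CPM over the 16 libraries and 66% of tested genes had a lower mean. Its estimated counts were not whole in 16 of 16 libraries, and lay up to 0.486 from a whole number, as kallisto gives where it divides reads between similar transcripts, so the level of this row is uncertain. The RefSeq gene table also lists Cd36l1 and Cd36-ps1 on the same chromosome as Cd36. Whether reads were divided between such copies was not tested, and values here belong to this row alone.

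Fabp3 (ENSRNOG00000012879.5), the cytosolic fatty acid carrier of heart muscle, ran the other way over the libraries. Controls held 1477, 1404, 905.8 and 1382 CPM. D55 ran from 1080 to 2418 CPM with a median of 1531, and D100 from 859.3 to 1777 with a median of 1225. D55 E and B, the lowest for Lpl, were the highest of the series for Fabp3 (2418 and 2144 CPM), and all groups overlapped. D55 over control was 0.34 (95% interval -0.21 to 0.90, edgeR adjusted p = 0.632) and D100 over D55 -0.36 (-0.86 to 0.13, adjusted p = 0.215). Without D55 B and E these were 0.03 (adjusted p = 1) and -0.05 (adjusted p = 0.901). D100 over control was -0.02 (-0.57 to 0.54, edgeR adjusted p = 0.974), an interval from 0.674-fold to 1.45-fold. With the top-10 share as a covariate Fabp3 was higher in D100 than in control by 0.47 (edgeR adjusted p = 0.0198), in a fit where 9.93% of all genes passed. In limma-voom the sign was the opposite, at -0.32 with all libraries (adjusted p = 0.0507) and at -0.34 without D100 F (adjusted p = 0.0386), where 68.7% of all genes passed.

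Acsl1 (ENSRNOG00000010633.3), which activates long-chain fatty acids, had the narrowest spread of the 4, with a biological coefficient of variation of 20%. Controls held 734.9, 721.6, 923.5 and 774.7 CPM. D55 ran from 573.5 to 968.5 CPM with a median of 859.3, and D100 from 751.2 to 1084 with a median of 996.6. D100 lay above every control in 4 of 6 animals, and D55 B and E were again the lowest of the series (573.5 and 659.8 CPM). D100 over control was 0.27 (95% interval -0.08 to 0.63, edgeR adjusted p = 0.324), D100 over D55 0.24 (-0.07 to 0.56, adjusted p = 0.193) and D55 over control 0.03 (-0.32 to 0.39, adjusted p = 0.95). By limma-voom, Acsl1 was higher in D100 than in control by 0.44 (adjusted p = 0.000182), in the fit that called 67.7% of all genes. With the top-10 share as a covariate in edgeR, D100 over control was -0.02 (adjusted p = 0.931) and D100 over D55 -0.19 (adjusted p = 0.419). As far as the deposited digits show, its estimates lay within 0.047 of a whole number in all libraries, those of Fabp3 within 0.01 and those of Lpl at a distance of 0.

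**Figure D2:**
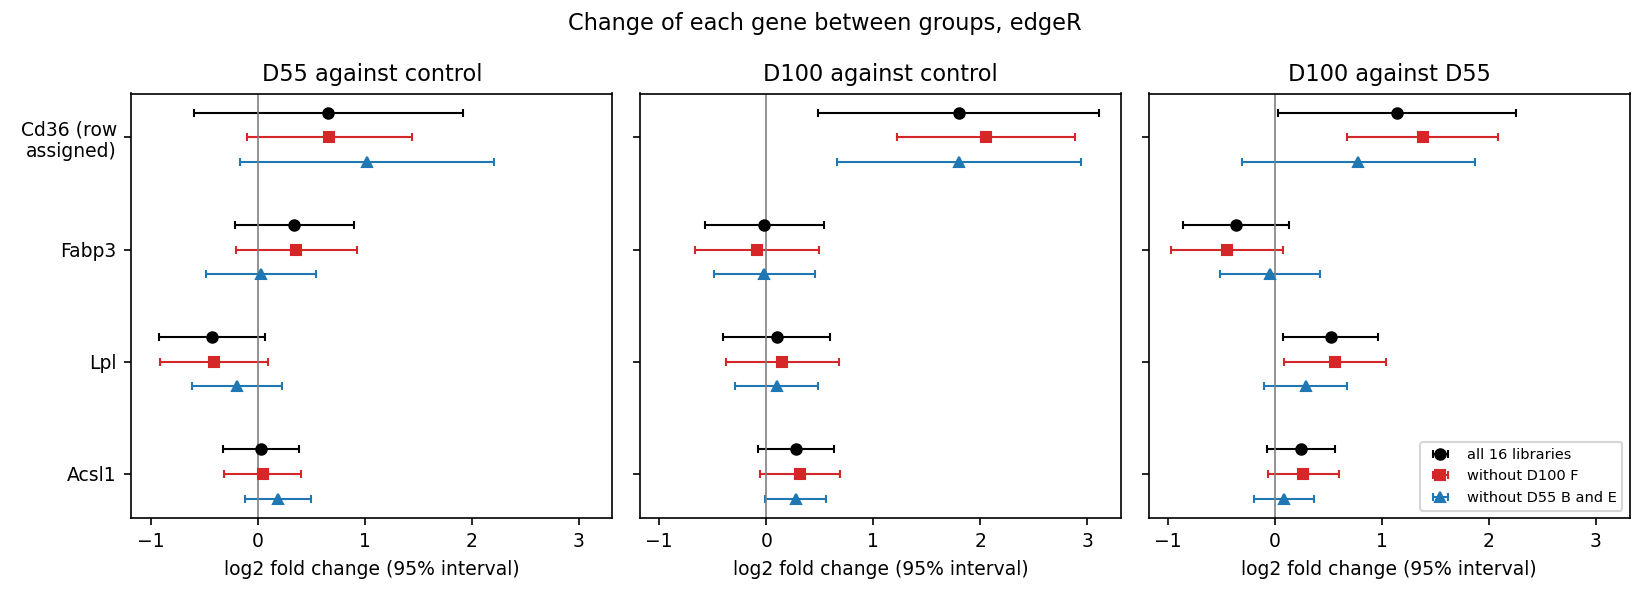
Log2 fold change of each gene with its 95% interval in the 3 comparisons, by edgeR with all 16 libraries (circles), without D100 F (squares) and without D55 B and E (triangles). The Cd36 row in D100 against control moves from 1.80 to 2.05 with a narrower interval without D100 F, while the intervals of Fabp3, Lpl and Acsl1 in that comparison include 0 in all 3 fits.

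The top-10 share differed between the libraries that were high and low for these genes. Libraries D55 B and E, with the lowest shares, were at the low end for Lpl and Acsl1 and at the high end for Fabp3. Among controls, replicate 3 had the highest share (59.44%), and in that group it was the highest for Lpl, Acsl1 and the Cd36 row and the lowest for Fabp3. D100 B, with the highest share of the series (69.04%), was the highest for Acsl1 and the Cd36 row and the lowest for Fabp3. The mean share was 60.8% in D100, 49.67% in control and 43.56% in D55, so it moved with the group. D100 and D55 libraries shared only the range from 53.42 to 54.66%. A covariate that moves with the group can take up a difference between groups. The covariate fits given above therefore cannot separate the share from the group. The part of the top-10 share in the group differences was not tested.

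**Figure D3:**
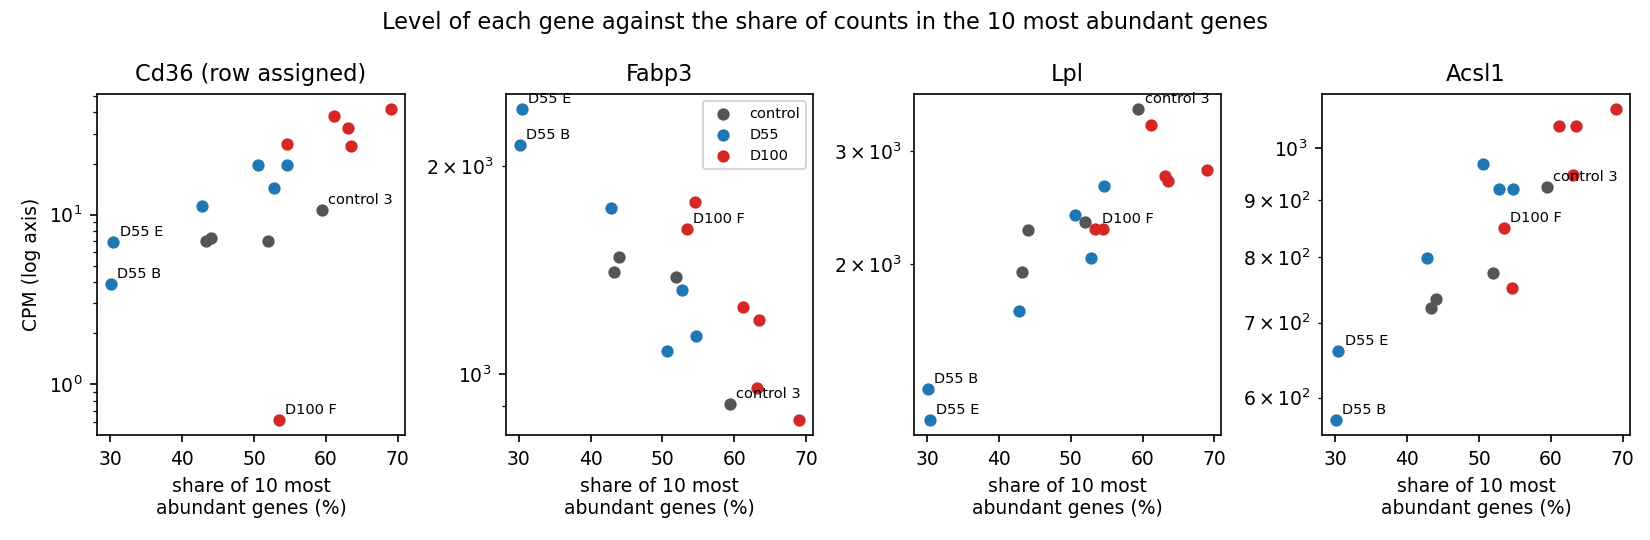
CPM of each gene (vertical log axes) against the top-10 share in percent (horizontal axes), 1 point for each library, coloured by group. D55 B and E sit at shares of 30.11 and 30.43%, low for Lpl and Acsl1 and high for Fabp3, and D100 F stands apart for the Cd36 row.

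Scaling sets the sign of some of these differences. Without scaling factors the median log2 fold change of all genes moved from -0.03 to -0.48 in D100 against control, from 0.03 to 0.20 in D55 against control and from -0.03 to -0.65 in D100 against D55. Lpl and Acsl1 then stood at -0.32 and -0.18 in D100 against control, above that median, and at -0.05 and -0.37 in D100 against D55, also above it. Acsl1 (adjusted p = 0.0129) and Fabp3 (-0.98, adjusted p = 0.04) passed in D100 against D55 in that edgeR fit, with 49.5% of all genes. The Cd36 row kept its sign, at 1.27 in D100 against control.

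Ratios of the counts of 2 members within a library do not depend on scaling. The ratio of the Cd36 row to Lpl was 0.0032, 0.00359, 0.00304 and 0.00301 in the controls. In D55 replicates A to F it was 0.00819, 0.00304, 0.00667, 0.00736, 0.00601 and 0.00701. In D100 replicates A to F it was 0.0118, 0.0149, 0.00944, 0.0116, 0.0114 and 0.000273. By this ratio all D55 libraries except B lay above all controls, and all D100 libraries except F lay above all D55 libraries. The order depended on the gene divided by. Over Acsl1, D100 except F again lay above all D55 libraries. D55 B (0.00679) then lay below the controls (0.00904 to 0.0115) and D55 E (0.0104) within them. Over Fabp3, D100 E (0.0146) lay below D55 A and D (0.0181 and 0.0171). Only A and D of D55 then lay above all controls, which reached 0.0117 in control 3. On the log2 scale the means of the ratio to Lpl were -8.29 ± 0.12 (SD, n = 4) in control and -7.36 ± 0.51 (SD) in the 6 D55 libraries. They were -6.42 ± 0.23 (SD, n = 5) in D100 without F, or -7.32 ± 2.22 (SD, n = 6) with it.

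The ratio of Lpl to Acsl1 was 3.08, 2.69, 3.78 and 3 in the controls, 1.74 to 2.88 in D55 and 2.58 to 3.15 in D100. D55 libraries A, B, C, E and F lay below all controls, while D55 D lay within their range. The log2 means were 1.64 ± 0.20 (SD, n = 4) in control, 1.17 ± 0.24 (SD) over 6 D55 libraries and 1.49 ± 0.12 (SD) over 6 D100 libraries. Without D55 B and E the D55 mean was 1.27 ± 0.19 (SD, n = 4).

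The ratio of Fabp3 to Lpl had the widest range of the 3 ratios among Fabp3, Lpl and Acsl1, from 0.26 in control 3 to 2.11 in D55 E, an 8.12-fold range. It exceeded 1 in D55 B, C and E alone (1.68, 1.02 and 2.11). Its log2 means were -0.95 ± 0.68 (SD, n = 4) in control, -0.19 ± 0.97 (SD) over 6 D55 libraries and -1.11 ± 0.56 (SD) over 6 D100 libraries, and the groups overlapped. These ratios are given as values, with no test.

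**Figure D4:**
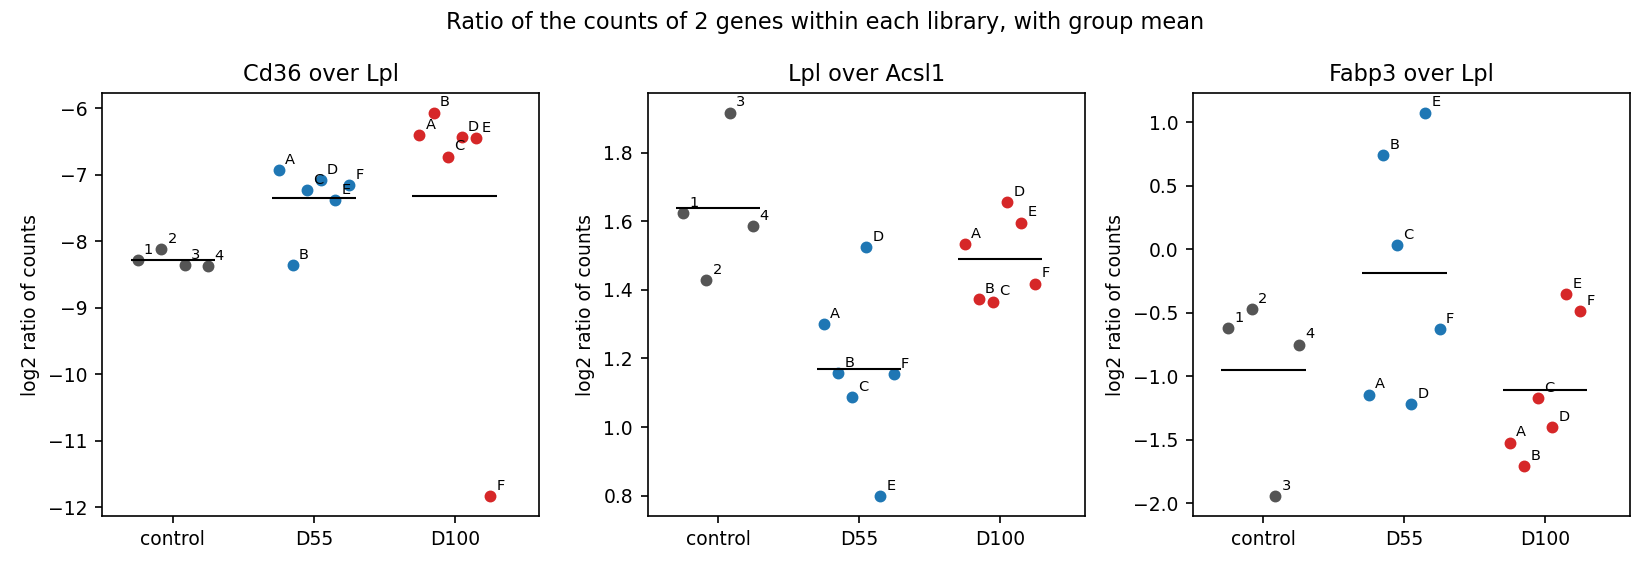
Log2 ratio of the counts of 2 genes within each library by group, labelled with the replicate, with a line for the group mean. The Cd36 row over Lpl lies between -8.37 and -8.12 in controls and between -6.73 and -6.07 in D100 except F at -11.84, and Lpl over Acsl1 is lowest in D55 E at 0.80.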

How the data were processed

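Heart RNA was extracted with TRIzol and 400 ng of it went into a stranded library kit for polyadenylated RNA, per the labels' protocols. The deposited files give an estimated count for every gene, 1 file to a rat. The submitters' processing notes list kallisto 0.43.1 and the genome build Rnor_6.0. Kallisto can divide a read between similar transcripts, which leaves decimals, and estimates farther than 0.01 from a whole number were taken as not whole. The sources used here name no annotation release or strand setting, and the labels no batch.

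Estimated counts were rounded. The files hold Ensembl identifiers alone, and 0 of the 23918 matched the RefSeq gene table (47357 rows, GRCr8). Members were named by the identifiers assigned to Cd36, Fabp3, Lpl and Acsl1. Only these genes were named: lists of pathway genes and cell type markers, and genes of similar pattern, had been set by symbol and were not analysed. Members and lists were chosen with earlier results of these data known.

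Genes were kept by filterByExpr (14175), scaled by TMM and tested in edgeR 4.0.16 (R 4.3.3) with a quasi-likelihood model over all 16 libraries, 1 coefficient per group. P-values were adjusted by Benjamini-Hochberg over all genes tested within a comparison, with a threshold of 0.05. Intervals use the total degrees of freedom and a standard error worked back from the edgeR log2 fold change and the F statistic of its test. The test was tried on simulated data. Within groups, every pair of libraries differed by more than counting noise (chi-square per degree of freedom 12 or more). For a library, 3 counts correspond to between 0.0413 and 0.619 CPM. Alternatives used other scalings, filters, DESeq2 1.42.0, limma-voom (limma 3.58.1), fewer libraries, the top-10 share as a covariate, thinned counts and a replicate block. Leaving out D100 F together with another change, or with D55 B and E, was chosen after seeing the data.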

Additional observations from a re-analysis of the deposited data

Results flagged for a closer look

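Among 12 sets of values (4 genes in 3 groups), control replicate 3 stood far from the other controls for the Cd36 row (10.62 CPM, against 6.976 to 7.248 in the others) and for Fabp3 (905.8 CPM, against 1382 to 1477). Its gap to the nearest control took 0.925 and 0.834 of the range of the group. For the Cd36 row the gap depended on the scaling. Without scaling factors control 3 held 8.814 CPM of this row, within the 7.168 to 9.051 CPM of the other controls. For Fabp3 it stayed the lowest without them, at 751.8 CPM against 1414 to 1844. Chance gives about 1 such value in 20 sets. This library also had the highest top-10 share among controls (59.44%, against 43.28 to 51.93%), whose part in these values was not tested. The same rule, which sets the gap against the range of the group, did not flag D100 F for the Cd36 row.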

How the results depend on the processing

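Values are for all genes unless the 4 members are named, and the alternatives without D100 F that carry another change, or that also leave out D55 B and E, were chosen after seeing the data. In D100 against control the 621 genes past the threshold (272 higher, 349 lower) became 1172 without scaling factors (90 higher, 1082 lower), 409 without a filter, 1438 in DESeq2, 9594 in limma-voom, 1493 without D55 B and E, 1407 with the top-10 share as a covariate, 325 with thinned counts and 2731 without D55 B, D55 E and D100 F. Without D100 F they were 1284 with the covariate, 1858 in DESeq2, 9704 in limma-voom and 1926 without scaling (106 higher, 1820 lower). Leaving out 1 library at a time gave 180 to 1086. In D55 against control the 9 genes (8 higher) became 5 without scaling, 88 in DESeq2, 522 in limma-voom, 1 with only the 2 groups, 14 without D55 B and E, 53 with the covariate and 16 without D55 B, D55 E and D100 F. Without D100 F they were 89 with the covariate, 128 in DESeq2, 496 in limma-voom and 0 without scaling. Leaving out 1 library gave 0 to 15. In D100 against D55 the 5041 genes (1944 higher, 3097 lower) became 7016 without scaling (141 higher, 6875 lower), 3018 with only the 2 groups, 123 without D55 B and E, 41 with the covariate and 342 without D55 B, D55 E and D100 F. Without D100 F they were 31 with the covariate, 7815 in DESeq2, 7362 in limma-voom and 8161 without scaling (165 higher, 7996 lower). Leaving out 1 library gave 1172 to 6745. The causes were not tested.

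Member counts are given here with the genes called among all tested. Of the 4 members, the 0 past the threshold in D100 against control became 1 in DESeq2 (10.1% of all genes) and 3 in limma-voom (67.7%). It was 1 without D55 B and E (10.8%), with the covariate (9.93%) and without D55 B, D55 E and D100 F (2731 of 13794). Without D100 F it was 2 with the covariate (9.09%), 1 in DESeq2 (1858 of 14133), 4 in limma-voom (68.7%) and 1 without scaling (1926 of 14133). In D55 against control the 0 members became 1 without D100 F, both with the covariate (89 of 14133 genes) and in limma-voom (496 of 14133). With the covariate it was the Cd36 row (0.89, edgeR adjusted p = 0.0484). In D100 against D55 the 0 members became 2 without scaling (49.5% of all genes), 1 in DESeq2 (46.6%) and 2 in limma-voom (49.9%). It was 1 without D55 B, D55 E and D100 F (342 of 13794). Without D100 F it was 2 in DESeq2 (7815 of 14133), 2 in limma-voom (7362 of 14133) and 3 without scaling (8161 of 14133). Leaving out 1 library gave 0 to 1, 0 to 0 and 0 to 1 members in the 3 comparisons.

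Signs turned as follows. In D100 against control, Fabp3 was 0.0125 with DESeq2 size factors and in DESeq2, 0.47 with the covariate, 0.46 with it and without D100 F, and -0.15 to 0.10 leaving out 1 library. Lpl was -0.32 without scaling, -0.32 with the covariate, -0.32 with it and without D100 F, -0.36 without scaling and D100 F, and -0.0074 to 0.30 leaving out 1 library. Acsl1 was -0.18, -0.0175, -0.0178 and -0.23 in those 4 fits. In D55 against control, Fabp3 was -0.14 in limma-voom and -0.13 there without D100 F, and Acsl1 -0.0262 to 0.12 leaving out 1 library. In D100 against D55, Lpl was -0.0514, -0.10, -0.13 and -0.0842 and Acsl1 -0.37, -0.19, -0.21 and -0.42 in the 4 fits, Fabp3 was 0.45 with the covariate and 0.42 also without D100 F, and the Cd36 row was -0.0204 with the covariate. The Cd36 row was positive in all 32 alternatives for D100 against control, at an adjusted p from 1.07e-06 to 0.294.

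D55 and D100 share replicate letters. Deviations of same-lettered libraries correlated at -0.50 to 0.63 and only letter E matched itself best, so the letters were not taken as pairs. With the replicate block 0 genes passed in D100 against D55, the Cd36 row was 1.05 (adjusted p = 0.282) and Lpl 0.57 (adjusted p = 0.0677). With the block and without letter F, 5960 of 13286 genes passed, 2 members among them, the Cd36 row (1.59, adjusted p = 0.0247) and Lpl (0.64, adjusted p = 0.0372). For the Cd36 row in D100 F, 3 counts correspond to 0.619 CPM. Their Poisson interval, for counting error alone, ended at 1.81 CPM, below every other library.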

Other observations

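The low value of the Cd36 row in D100 F was set beside other genes in the same library. Among 8675 genes with a mean of at least 5 CPM in the other libraries, 45 stood in D100 F below their lowest value elsewhere divided by 5, the Cd36 row included. Of these 45, 30 (66.7%) had estimates that were not whole in 8 or more libraries, against 23.6% of all genes judged. In each of the other 15 libraries 0 to 6 genes stood as far below the rest, and all of those genes had estimates that were not whole in 8 or more libraries. D100 F was the shallowest library, at 4.685 M counts. These counts were made after the value of the Cd36 row in D100 F was seen, and the cause was not tested.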
